A study of Homo sapiens with 15 samples.

Results

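KRT18 encodes keratin 18, and it was examined in Caco-2, an established line from a human colon carcinoma whose cells take an enterocyte-like form once confluent. The 15 whole-transcript arrays came from 3 groups of 5: LPS+RSV cells, given 50 µM trans-resveratrol, a plant polyphenol, 1 h before 1 µg/mL lipopolysaccharide from E. coli K12; LPS cells, given the same endotoxin for 48 h without resveratrol; and untreated control cells. All groups were grown in multiwell culture plates and used 15 to 19 days after seeding, and all are 1 carcinoma line, without the other cell types of a gut wall. Resveratrol was dissolved in ethanol, and the labels do not say whether the LPS or control wells received ethanol; no group received resveratrol alone. The labels number the arrays within a group without saying that each came from its own culture, so every p-value measures the spread between these arrays, which may be technical.

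The members were the 2 rows of the deposited table that carry the symbol KRT18, of 16098 rows with 1 symbol (14884 symbols). KRT18 was chosen by its measured values in the LPS against control and the LPS+RSV against LPS contrasts. Its differences in those contrasts are therefore given as a description, without a test. Both rows passed the filter on dim rows. The brighter row, probe set 16938654, averaged 10.08 over the 15 arrays on the log2 scale, and the dimmer row, probe set 16751554, averaged 7.56. A difference in brightness between probe sets is not a difference in RNA amount.

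Keratins are the intermediate filament proteins of epithelial cells. Each filament is built from pairs of a type I and a type II chain, and in simple, single-layered epithelia such as the gut lining the type I chain keratin 18 pairs with the type II chain keratin 8. The network anchors to desmosomes and gives the cell mechanical resilience, and keratin 18 is cleaved by caspases when epithelial cells die. The human genome holds many processed KRT18 pseudogenes, copies of the spliced RNA that lie away from the gene, so array probes for KRT18 can match more than 1 place.

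The 2 rows did not have the same place in the array's list of probe sets. KRT18 lies on chromosome 12. Probe set identifiers of the table run largely along the genome: only 98 of 16097 named rows (0.609%) had no row on their own gene's chromosome among the 5 nearest named rows on each side. The dimmer row, annotated with RefSeq transcript NM_199187, stood between KRT7 and EIF4B, and all 10 of its neighbours were on chromosome 12. The brighter row, annotated with NM_000224, stood between CMTM8 and CMTM7, which encode membrane proteins of the chemokine-like factor superfamily, and 10 of its 10 neighbours were on chromosome 3 and 0 on chromosome 12. In that stretch RefSeq (GRCh38.p14) lists 1 KRT18 pseudogene, KRT18P15, which lies inside CMTM8; between KRT7 and EIF4B it lists 0. The sequences of the probes were not used here, so which RNA each row reads was not tested, and signal from KRT18 and from a pseudogene transcript cannot be told apart.

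RefSeq lists 68 KRT18 pseudogenes on 22 chromosomes. Under its own name 1 of them, KRT18P55, had a row here. A further 9 named genes overlap a KRT18 pseudogene in RefSeq: 8 hold one inside the gene, and 1, the microRNA gene MIR622, lies inside one, KRT18P27 on chromosome 13. The mature microRNA is shown because the gene lies inside a KRT18 copy and its row was among those most like the brighter KRT18 row. Its RefSeq sequence lies at chr13:90231242-90231262 on the plus strand of GRCh38.p14, with the seed, bases 2 to 8, in capitals.

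hsa-miR-622: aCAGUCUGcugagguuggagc

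The brighter KRT18 row was highest in the LPS arrays. In LPS+RSV its log2 values were 10.01, 10.13, 9.90, 9.75 and 9.61 for replicates 1 to 5. In LPS they were 10.60, 10.70, 10.38, 10.47 and 10.58. In control they were 9.92, 10.09, 9.85, 9.67 and 9.56. All 5 LPS arrays lay above all 5 arrays of either other group, while the LPS+RSV and control arrays overlapped over nearly their whole range. The brighter row was higher in LPS than in control by 0.73 ± 0.11 (log2, SE of the limma fit, n = 5 arrays each), with a 95% interval of 0.49 to 0.96. It was lower in LPS+RSV than in LPS by -0.66 ± 0.11, with an interval of -0.90 to -0.43. These comparisons share the LPS arrays. For scale, LPS arrays lay wholly above control arrays in 1.08% of the 11804 genes tested, and LPS+RSV arrays wholly below LPS arrays in 1.39%; both contrasts chose the gene, so nothing is read from its place among them.

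The dimmer row showed smaller differences in the same directions, and its groups overlapped. Its log2 values were 7.47, 7.42, 7.43, 7.50 and 7.70 in LPS+RSV replicates 1 to 5. In LPS they were 7.86, 7.56, 7.87, 7.70 and 7.81. In control they were 7.32, 7.29, 7.34, 7.18 and 7.97. Control replicate 5 was the highest of all 15 arrays, whereas the other 4 control arrays, at 7.18 to 7.34, lay below every LPS+RSV and LPS array. The difference between LPS and control was 0.34 ± 0.12, with an interval of 0.08 to 0.60. Without control replicate 5 it was 0.48. Between LPS+RSV and LPS it was -0.25 ± 0.12, with an interval of -0.51 to 0.01.

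**Figure D1:**
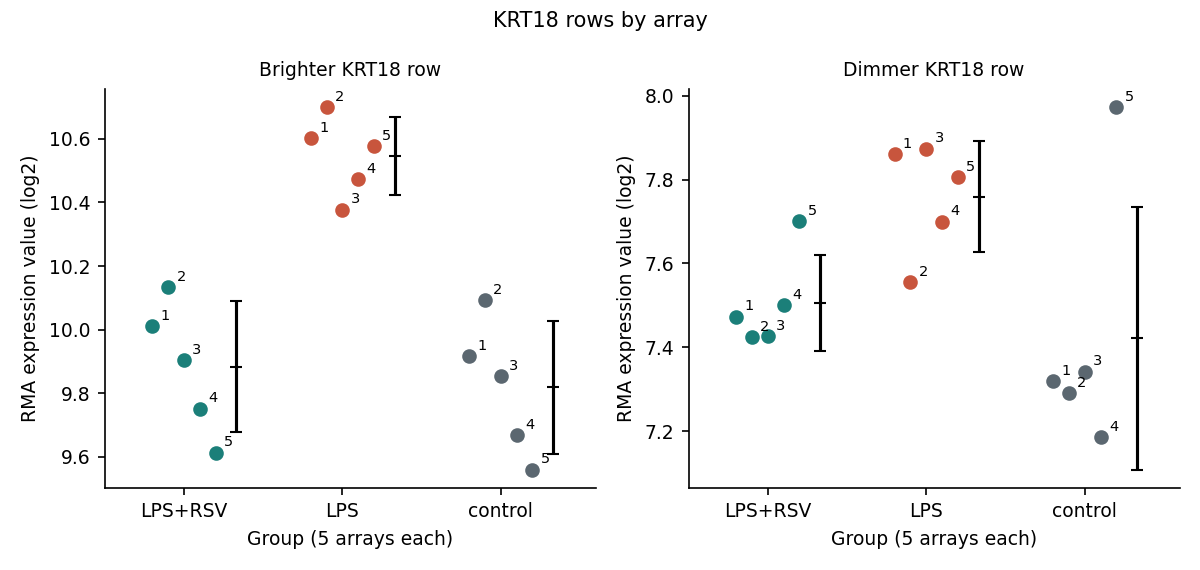
Log2 RMA values of the 2 KRT18 rows on each of the 15 arrays, by group; numbers are replicates, and the bars beside the points give the mean and SD of 5 arrays. In the brighter row the LPS arrays, at 10.38 to 10.70, lie above all others, while in the dimmer row control replicate 5, at 7.97, lies above every LPS array. The vertical axes do not start at 0 and differ between panels.

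The contrast LPS+RSV against control was not itself used to choose the gene. Its difference is still the sum of the differences in both contrasts that were used. The test here is therefore not independent of the choice, and a small difference is no separate evidence of a return to control. Neither row's difference passed the test in LPS+RSV against control, and that test did not pair arrays by replicate number. In the brighter row the same-numbered differences were 0.04 to 0.09, positive in 5 of 5. The brighter row averaged 9.88 ± 0.21 in LPS+RSV and 9.82 ± 0.21 in control (log2, SD, n = 5 each), a difference of 0.06 ± 0.11 (adjusted p = 0.816, limma). Its 95% interval ran from -0.17 to 0.30. The dimmer row averaged 7.51 ± 0.11 in LPS+RSV and 7.42 ± 0.31 in control, a difference of 0.08 ± 0.12 with an interval of -0.18 to 0.34 (adjusted p = 0.783 in a limma fit of all 12700 named rows past the filter). A difference as large as the 0.73 of LPS against control in the brighter row lay outside both intervals. That value comes from a contrast that chose the gene and shares the control arrays, so nothing is read from this. The dimmer row's own 0.338 in LPS against control lay inside its interval, whose upper end was 0.344. In this contrast 0 of 11804 genes (0%) were called at an adjusted p under 0.05 by limma, with 483 higher and 756 lower at an unadjusted p under 0.05.

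Inside the groups the 2 rows tended to opposite sides, in a relation that did not pass after adjustment. With each group's mean removed, 10 of the 15 arrays lay on opposite sides of the mean in the 2 rows. Control replicate 5 was the lowest of its group in the brighter row, at -0.26 from the group mean, and the highest in the dimmer row, at 0.55. LPS+RSV replicate 5 was likewise lowest in the brighter row, at -0.27, and highest in the dimmer row, at 0.20. LPS replicate 2 was highest of its group in the brighter row, at 0.15, and lowest in the dimmer row, at -0.20. Pearson's r over the 15 arrays was -0.597 (permutation p = 0.0303) and Spearman's rho was -0.611 (permutation p = 0.0139), 2-sided with 100000 shuffles inside the groups. Adjusted over the 11 relations computed, 10 of which were added after the data were seen, these were 0.0666 and 0.0764, above the threshold of 0.05. Leaving out the 2 arrays farthest from the median of the brighter row gave r = -0.267, so the relation rested on those arrays. Both rows are read from the same arrays. The shuffles took arrays of different groups as independent, also where they carry the same number.

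**Figure D2:**
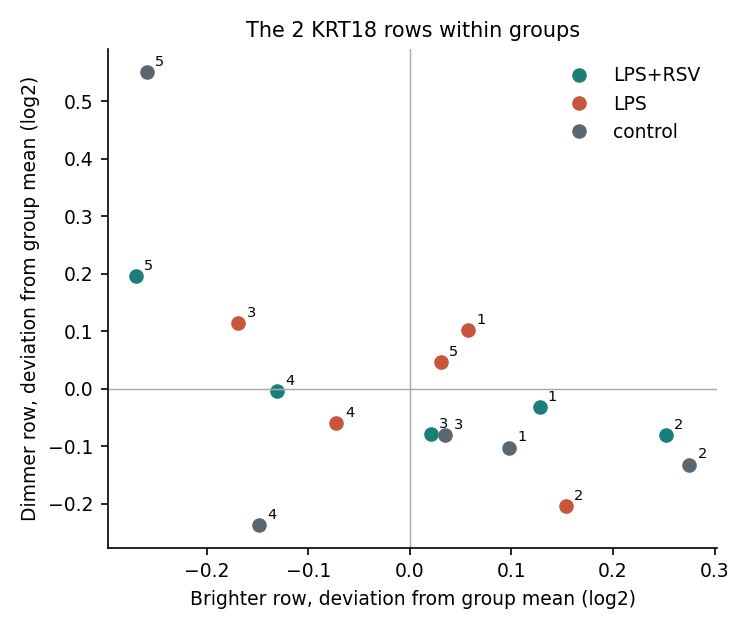
Deviation of each array from its group mean (log2), brighter KRT18 row across and dimmer row upward; numbers are replicates. Control replicate 5, at -0.26 and 0.55, and LPS+RSV replicate 5, at -0.27 and 0.20, stand at the upper left, and 10 of 15 arrays lie on opposite sides of the mean in the 2 rows.

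Rows that share a symbol seldom disagreed to that extent. Of 405 symbols with 2 rows past the filter, the centred r had a median of 0.295, was below 0 in 88 (21.7%) and was at or below the KRT18 value in 3 (0.741%), KRT18 among them. In the 36 symbols for which 1 row had no neighbour on the gene's own chromosome, the KRT18 value was the lowest and the median was 0.444. These pairs share arrays, and some share probes, so the values are a description.

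**Figure D3:**
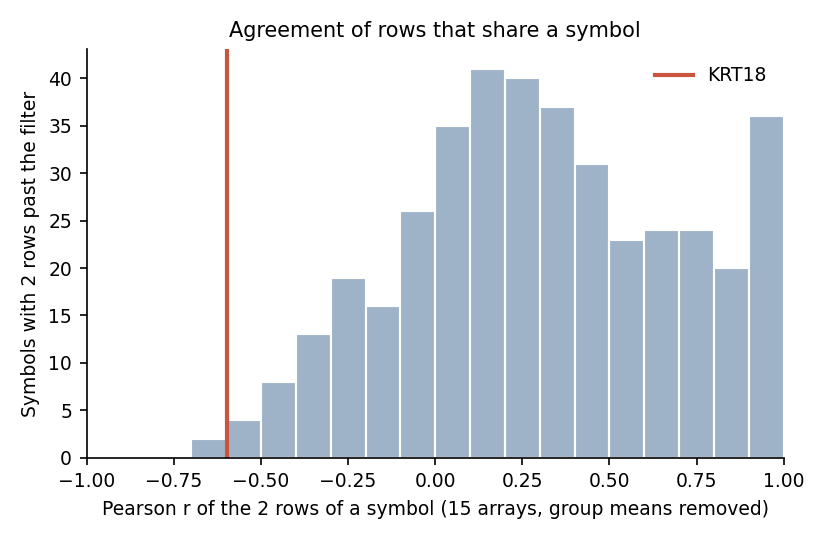
Number of symbols, of 405 with 2 rows past the filter, by the Pearson r between their rows over 15 arrays with group means removed. The red line marks KRT18 at -0.597, near the low end; the median symbol stood at 0.295.

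Genes of cell division varied between arrays of 1 group, and the 2 KRT18 rows had correlations of opposite sign with them. All 25 cell cycle genes tested had higher means in LPS than in control (median difference 0.62), where 52.7% of all genes did. By limma 0 were called, and 8 were higher at an unadjusted p under 0.05, where 4.62% of all genes were. All 25 also had lower means with LPS+RSV than with LPS alone (median difference -0.72), with 0 called and 17 lower at an unadjusted p under 0.05, where 10.5% of all genes were. The cell cycle score, the mean log2 deviation of 25 genes such as PLK1, a mitotic kinase, and CCNB1, a mitotic cyclin, ranged between -0.93 and 0.45 in LPS+RSV arrays, between -0.04 and 1.04 in LPS arrays, and between -1.05 and 0.47 in control arrays. In bulk RNA, fewer dividing cells and less of these transcripts per cell cannot be told apart. With group means removed, the brighter row had r = 0.699 with the score (permutation p = 0.0109, adjusted p = 0.0497) and rho = 0.625 (permutation p = 0.0251, adjusted p = 0.0777). The dimmer row had r = -0.579 (permutation p = 0.0499, adjusted p = 0.0915) and rho = -0.525 (permutation p = 0.0506, adjusted p = 0.0795). Leaving out the 2 farthest arrays gave r = 0.520 for the brighter row and -0.147 for the dimmer row. A fit with the score as a covariate was added after the data were seen. In it LPS against control was 0.59 in the brighter row and 0.46 in the dimmer row, and LPS+RSV against LPS was -0.48 and -0.42. The score was higher in LPS (mean 0.45) than in control (-0.13) or LPS+RSV (-0.32). With correlations of opposite sign, the fit had to bring the rows closer together, so nothing is read from that.

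The row of MIR622, the gene inside a KRT18 pseudogene, had nearly the same differences as the brighter KRT18 row. In LPS+RSV its log2 values were 7.53, 7.47, 7.16, 7.40 and 7.04, in LPS 8.16, 8.37, 7.92, 7.64 and 7.88, and in control 7.28, 7.48, 7.30, 7.38 and 6.89, for replicates 1 to 5. All LPS arrays lay above the arrays of both other groups. The difference was 0.73 ± 0.14 between LPS and control (adjusted p = 0.112, limma) and -0.68 ± 0.14 between LPS+RSV and LPS (adjusted p = 0.0681, limma), so neither passed over all genes. Between LPS+RSV and control it was 0.05 ± 0.14 (adjusted p = 0.883, limma). With group means removed the MIR622 row had r = 0.694 and rho = 0.757 with the brighter row, and r was 0.513 without the 2 farthest arrays. By that measure it ranked 496 among the genes tested, against 5 with the group differences kept. Against the dimmer row r was -0.637 and rho was -0.579, with r at -0.341 without the 2 farthest arrays. These are descriptions, since MIR622 was singled out after its likeness to the brighter row was seen. Which RNA the MIR622 row reads was not tested. Signal from MIR622, from KRT18P27 and from KRT18 cannot be told apart in it, so its values are not a measure of the mature microRNA.

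The other rows tied to KRT18 copies gave no call in any comparison. KRT18P55 averaged 6.76 ± 0.15 in LPS+RSV, 6.65 ± 0.29 in LPS and 6.69 ± 0.03 in control (log2, SD, n = 5 each). It differed by -0.04 ± 0.11 between LPS and control (adjusted p = 0.970, limma) and by 0.10 ± 0.11 between LPS+RSV and LPS (adjusted p = 0.648, limma). With group means removed its r with the brighter row was -0.503 (permutation p = 0.0157, adjusted p = 0.0497) and rho = -0.511 (permutation p = 0.0488, adjusted p = 0.0795), and r was -0.462 without the 2 farthest arrays. CMTM8, the row beside the brighter KRT18 row and the gene that holds KRT18P15, differed by -0.01 ± 0.09 between LPS and control (adjusted p = 0.989, limma). CMTM7, on the other side, differed by 0.01 ± 0.07 (adjusted p = 0.991, limma). Of the 8 genes that hold a KRT18 pseudogene, 6 were tested, and their differences between LPS and control lay between -0.31 in BCAS3 and 0.06 in NIPBL, with 0 called by limma. In LPS+RSV against LPS they lay between -0.55 ± 0.16 in NIPBL and 0.26 ± 0.11 in BCAS3, with LCORL at -0.33 ± 0.11 and 0 called (adjusted p = 0.129 for NIPBL, 0.166 for LCORL and 0.236 for BCAS3). NIPBL and LCORL were thus lower in LPS+RSV than in LPS, without passing the test. Unlike the KRT18 rows, they differed little between LPS and control, by 0.06 ± 0.16 and -0.003 ± 0.11. Between LPS+RSV and control they differed by -0.49 ± 0.16 and -0.33 ± 0.11 (adjusted p = 0.464 each, limma).

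Among the other tested simple epithelial keratins, only KRT20 differed by more than either KRT18 row in the comparisons with the LPS group. It varied widely. KRT20, a keratin of differentiated gut epithelium, had log2 values of 6.44, 5.33, 5.67, 5.63 and 5.80 in LPS+RSV replicates 1 to 5, of 7.62, 7.96, 6.34, 6.27 and 5.79 in LPS, and of 5.44, 5.35, 5.54, 5.95 and 5.88 in control. LPS replicates 1 and 2 were far above the other LPS arrays, and LPS replicate 5 lay among the controls. Its difference was 1.16 ± 0.34 between LPS and control (adjusted p = 0.351, limma) and -1.02 ± 0.34 between LPS+RSV and LPS (adjusted p = 0.166, limma).

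KRT8, the filament partner of KRT18, passed the test in none of the 3 comparisons. It averaged 6.78 ± 0.26 in LPS+RSV, 7.01 ± 0.17 in LPS and 6.93 ± 0.15 in control (log2, SD, n = 5 each), and the groups overlapped. It differed by 0.08 ± 0.12 between LPS and control, with an interval of -0.17 to 0.33 (adjusted p = 0.917, limma). A difference as large as that of the brighter KRT18 row, from a contrast that chose KRT18, lay outside it. The 0.338 of the dimmer KRT18 row lay just above its upper end of 0.331. KRT8 differed by -0.23 ± 0.12 between LPS+RSV and LPS, with an interval of -0.48 to 0.02 (adjusted p = 0.309, limma), close in size to the -0.25 of the dimmer KRT18 row. Differences between KRT8 and either KRT18 row were not tested. With group means removed KRT8 had r = 0.137 with the brighter row and 0.166 with the dimmer row (permutation p = 0.676 and 0.543, adjusted p = 0.676 and 0.597; rho = 0.214 and 0.0786). KRT8, too, has pseudogenes, of which KRT8P41 had a tested row and differed by 0.11 ± 0.13 between LPS and control and by -0.00 ± 0.13 between LPS+RSV and LPS.

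KRT19, a type I keratin of simple epithelia, differed by 0.11 ± 0.10 between LPS and control and by 0.08 ± 0.10 between LPS+RSV and LPS (adjusted p = 0.863 and 0.696, limma). KRT7, a type II keratin of ducts, differed by -0.08 ± 0.12 and 0.10 ± 0.12, and KRT23, a type I keratin, by 0.18 ± 0.10 and 0.04 ± 0.10, and neither passed. KRT80 lay below the filter. Of all 48 keratins with a row, 24 were tested: 6 simple and 18 others. KRT18 itself was chosen by the contrasts with the LPS group, so its own calls there are not counted. Of the 23 other keratins, 0 were called by limma in LPS against control, where 0.0254% of all genes were called higher, and 1, KRT20, was higher at an unadjusted p under 0.05. In LPS+RSV against LPS 0 of the 23 were called, where 0.0339% of all genes were called lower, and 2, KRT20 and KRT37, were lower at an unadjusted p under 0.05; KRT37 was named after its value was seen. The 5 simple keratins other than KRT18 had median differences of 0.11 and 0.04 in those comparisons, the 18 others -0.01 and 0.01, and all 11804 genes 0.01 and 0.01. KRT4 and KRT14, keratins of stratified epithelia, differed by 0.13 ± 0.07 and 0.17 ± 0.15 between LPS and control, KRT39 by 0.13 ± 0.12 and KRT27 by 0.09 ± 0.09. In LPS+RSV against control 0 of the 23 were called, with 1 higher and 1 lower at an unadjusted p under 0.05.

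**Figure D4:**
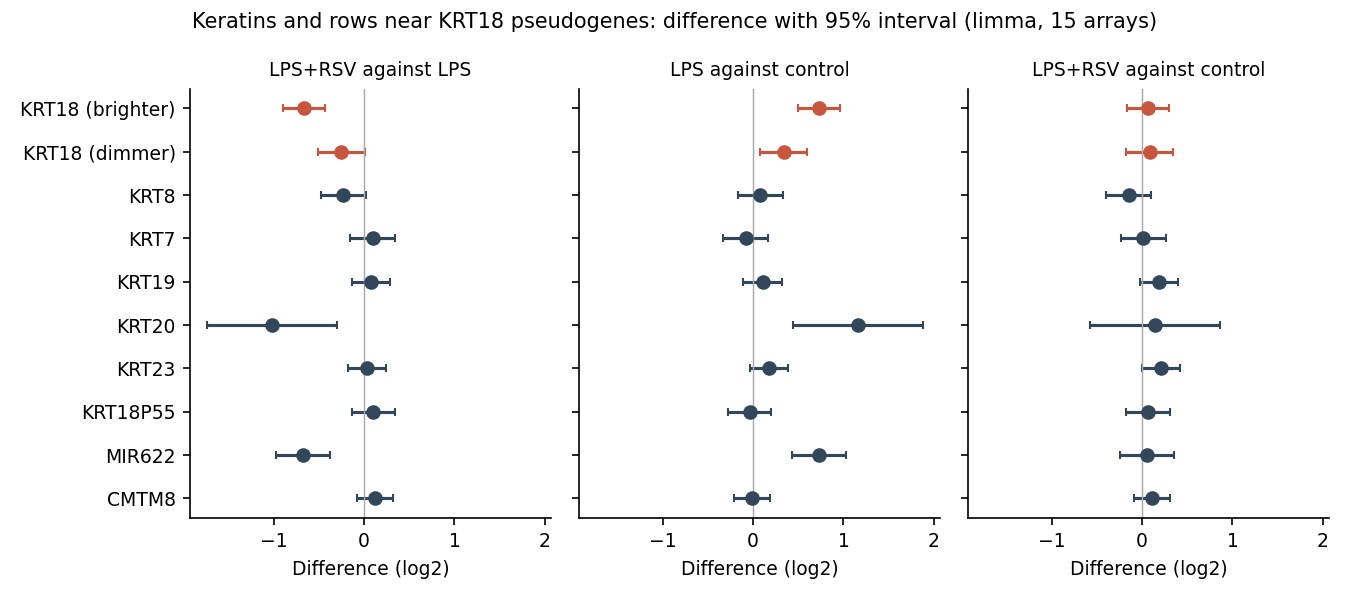
Log2 differences with 95% intervals from limma for the 2 KRT18 rows (red), 5 other simple epithelial keratins and 3 rows tied to KRT18 pseudogenes, in LPS+RSV against LPS, LPS against control and LPS+RSV against control. MIR622 (0.73 for LPS against control, -0.68 for LPS+RSV against LPS) stands level with the brighter KRT18 row, while KRT8, at 0.08 and -0.23, lies nearer 0.

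Genes that tie keratin filaments to the cell border were mostly higher in LPS, and none passed the test. Of 13 tested desmosome and plakin genes, 12 were higher in LPS than in control, where 52.7% of all genes were, with a median of 0.12. Of them 0 were called, and 4 were higher at an unadjusted p under 0.05, where 4.62% of all genes were. The plakophilin PKP2, a desmosomal plaque protein, differed by 0.31 ± 0.10 between LPS and control and by -0.44 ± 0.10 between LPS+RSV and LPS (adjusted p = 0.356 and 0.0712, limma). The desmosomal cadherin DSG2 differed by 0.60 ± 0.19 and -0.71 ± 0.19 (adjusted p = 0.369 and 0.127, limma). The plaque protein JUP differed by 0.19 ± 0.07 and -0.07 ± 0.07, and the filament linker PLEC by 0.22 ± 0.10 and -0.11 ± 0.10. In LPS+RSV against LPS 9 of the 13 were lower, where 47.9% of all genes were, with a median of -0.11. Of them 0 were called, and 4 were lower at an unadjusted p under 0.05, where 10.5% of all genes were. In LPS+RSV against control 7 were higher and 6 lower, with 0 called. There 2 were lower at an unadjusted p under 0.05, where 6.4% of all genes were. The other intermediate filament genes exceeded control in LPS for 7 of 8 tested, where 52.7% of all genes did, at a median difference of 0.13 and 0 called. LMNB1, a nuclear lamin, differed by 0.50 ± 0.27, and NES, the filament gene nestin, by 0.22 ± 0.09. The lamins LMNA and LMNB2 differed by 0.22 ± 0.10 and 0.17 ± 0.09.

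KRT18 transcription is known to depend on ETS and AP-1 factors, and these were read as a list. ETV4, an ETS factor, rose in LPS against control by 0.89 ± 0.14 (adjusted p = 0.0380, limma) and fell by 0.89 ± 0.14 in LPS+RSV against LPS (adjusted p = 0.0307, limma). These ETV4 values were known from earlier results of these data when the list was chosen. Nothing is therefore read from ETV4's calls as a count for the list. Its call in LPS against control was lost in 9 of 15 fits that left out 1 array and its call in LPS+RSV against LPS in 10 of 15, and both were lost in fits to the 2 groups compared (adjusted p = 0.0616 and 0.0764, limma). Of 18 tested members 15 exceeded control in LPS, at a median difference of 0.14, where 52.7% of all genes did, and ETV4 was the 1 called, where 0.0254% of all genes were. Of the same 18, 12 lay lower with LPS+RSV than with LPS alone, at a median difference of -0.03, where 47.9% of all genes were, and 1 was called, where 0.0339% of all genes were called lower. ETS2 differed by 0.34 ± 0.09 between LPS and control and by -0.29 ± 0.09 between LPS+RSV and LPS, FOS by 0.35 ± 0.15 and -0.01 ± 0.15, and the general factor SP1 by -0.15 ± 0.06 and 0.14 ± 0.06, none past the test. Of 16 listed binding partners, kinases and caspases of keratin 18, 2 had a tested row: TRADD, a death receptor adaptor that binds keratin 18, differed by -0.02 ± 0.12 and 0.22 ± 0.12, and CFLAR, an inhibitor of caspase activation, by -0.10 ± 0.08 and 0.01 ± 0.08.

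The genes whose pattern over the 15 arrays was most like the brighter KRT18 row were BCL2L1, an apoptosis inhibitor, at r = 0.945, MPV17L at 0.936, ETV4 at 0.930, NIP7, a ribosome assembly factor, at 0.921, MIR622 at 0.919, the early response gene IER3 at 0.914, the transcription factor MYC at 0.911, the homeobox gene HOXB9 at 0.904, the NADPH oxidase gene NOX1 at 0.902 and GTF3A, a factor for ribosomal RNA transcription, at 0.902. These values are descriptive, since the likeness includes the differences between the 3 groups. With group means removed r ranged from 0.455 in NOX1 to 0.874 in MPV17L. The same 10 genes had r between 0.145 and 0.494 with the dimmer row, and between -0.638 and -0.189 with it once group means were removed. BCL2L1 differed by 0.36 ± 0.07 between LPS and control and by -0.30 ± 0.07 between LPS+RSV and LPS (adjusted p = 0.157 and 0.103, limma), MYC by 0.87 ± 0.20 and -0.81 ± 0.20, and HOXB9 by 0.81 ± 0.15 and -0.67 ± 0.15. The most opposite were SUGCT, a mitochondrial CoA transferase gene, at r = -0.942, SMLR1 at -0.929, RSAD1 at -0.921, the glutathione transferase GSTM4 at -0.914 and the sestrin SESN3 at -0.910. Of these genes NOX1 was called together with ETV4: it rose in LPS against control by 2.03 ± 0.25 (adjusted p = 0.0047, limma) and fell by 1.94 ± 0.25 in LPS+RSV against LPS (adjusted p = 0.00864, limma). Both NOX1 calls held in all 15 fits that left out 1 array and were lost in fits to the 2 groups compared (adjusted p = 0.0616 and 0.0764, limma). SUGCT differed by -0.40 ± 0.11 and 0.38 ± 0.11 (adjusted p = 0.302 and 0.127, limma). TOP1, a DNA topoisomerase, and CLYBL, a mitochondrial enzyme, completed the calls in LPS+RSV against LPS, at -0.54 ± 0.08 and 0.58 ± 0.09 (adjusted p = 0.0307 each, limma). Without 1 array these calls were lost in 10 of 15 fits for TOP1 and 11 of 15 for CLYBL.

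**Figure D5:**
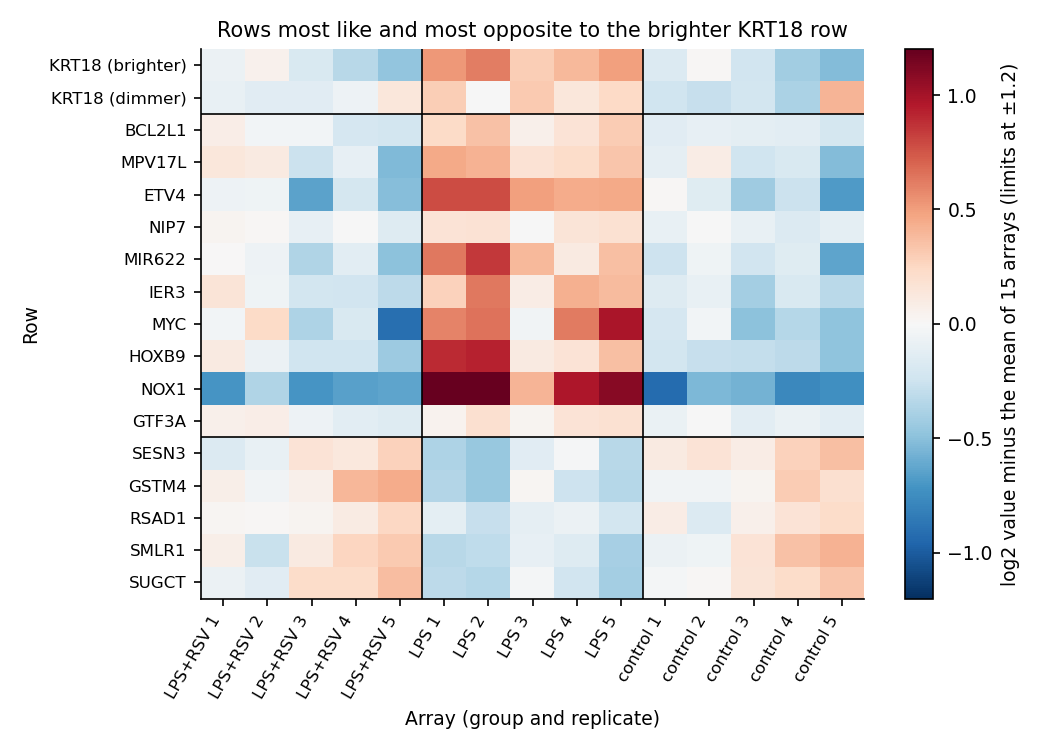
Log2 value minus the mean of 15 arrays for the 2 KRT18 rows, the 10 genes most like the brighter row and the 5 most opposite; arrays run across by group and replicate. The 10 genes, with r of 0.902 to 0.945, are mostly above their means in the LPS arrays (colours stop at ±1.2, which NOX1 exceeds), and the dimmer KRT18 row departs from them at control replicate 5.

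Genes of enterocyte differentiation gave no call. Of 9 tested, 5 were above and 4 below control in LPS, where 52.7% of all genes were above, with a median of 0.01. The brush border disaccharidase SI differed by -0.42 ± 0.18 and the cytoskeletal linker EZR by 0.22 ± 0.11. The peptidase DPP4 differed by 0.25 ± 0.14 and the apolipoprotein APOA1 by 0.09 ± 0.11. In LPS+RSV against LPS 7 of the 9 were higher, where 52.1% of all genes were, with a median of 0.09. Markers of cell types were read against the 40th percentile of each array's rows. EPCAM, CLDN7, KRT8, KRT19 and VIL1, 5 of the 5 epithelial markers with a row, lay above the 40th percentile of all 15 arrays, against 0 of 2 fibroblast markers. So did 4 of 5 goblet cell markers with a row, 1 of 2 Paneth cell markers (LYZ), 1 of 3 enteroendocrine markers (SYP) and 2 of 2 immune cell markers (CD68 and CD14). Of all 14884 symbols, 11804 passed that level in at least 5 arrays. Most genes thus pass it, and these counts do not tell which cell types were present. Array medians lay between 5.49 and 5.54 and arrays correlated between 0.922 and 0.994 over the genes tested; LPS+RSV replicate 1 correlated least with the others, at a mean of 0.946. The LPS against control difference of the brighter KRT18 row was 0.66 without LPS replicates 1 and 2, which stood apart in KRT20.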

How the data were processed

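Biotin-labelled cDNA from 300 ng of total RNA per sample was hybridised to whole-transcript arrays, per the labels' protocols. The deposited table gives 1 log2 expression value per probe set and array, made with RMA per the submitters' processing notes; RMA's version and the genome build were not given in the sources used here. Of 53617 rows, 16098 had 1 symbol in the platform annotation, 0 had several and 37519 were unnamed here.

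The brightest row stood for each symbol, and 11804 genes above the 40th percentile of an array's rows in at least 5 arrays were tested. Limma 3.58.1 (R 4.3.3, eBayes, neither trended nor robust) estimated 3 group means from the 15 arrays together, and genes with a Benjamini-Hochberg adjusted p under 0.05 across all genes were called. The dimmer KRT18 row came from the same fit to all 12700 named rows past the filter. Relations across arrays used deviations from group means (Python 3.11.15). Both procedures were tested on simulated data. Named were KRT18, the tested simple keratins, up to 4 members of each list (called, then lowest p in LPS against control), called genes, the 10 genes most like and the 5 most opposite to the brighter row; MIR622 and the other genes overlapping KRT18 pseudogenes were added after the data were seen. Members and lists were chosen with earlier results of these data known. Chromosomes and neighbours came from RefSeq, GRCh38.p14. The number of arrays limits the precision. Alternatives changed the filter, rows per gene, normalization, weights, arrays in the fit, replicate block and arrays left out.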

Additional observations from a re-analysis of the deposited data

Results flagged for a closer look

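In 9 rows over 3 groups each, 27 sets of 5 arrays, 2 had an array separated from its group by more than Dixon's 95% critical value of 0.71, where chance gives about 1 in 20 sets. Both were in the dimmer KRT18 row. Control replicate 5 stood at 7.97, against 7.34 for the next array of its group, a gap of 0.801 of the group's range. LPS+RSV replicate 5 stood at 7.70, against 7.50 for the next, a gap of 0.724 of the range. These arrays had the lowest cell cycle scores of their groups, -1.05 in control and -0.93 in LPS+RSV. They also had the lowest values of the brighter KRT18 row in their groups. The r of the dimmer row with the score, group means removed, was -0.579, and -0.147 without these 2 arrays. The cause of their high dimmer values was not tested.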

How the results depend on the processing

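The differences of both KRT18 rows in LPS+RSV against LPS and in LPS against control kept their direction, and moved by less than 1 SD between arrays, in all 20 alternatives each. Leaving out 1 array at a time gave 0.66 to 0.80 for the brighter row and 0.28 to 0.48 for the dimmer row in LPS against control, and -0.73 to -0.60 and -0.30 to -0.23 in LPS+RSV against LPS. In LPS+RSV against control the range was -0.000206 to 0.133 for the brighter row, whose sign turned without control replicate 5, and 0.0245 to 0.222 for the dimmer row. The centred r of the 2 rows ranged from -0.772 to -0.453 without 1 array (permutation p 0.00206 to 0.122, above 0.05 without LPS+RSV replicate 5, LPS replicates 2 or 3 or control replicates 1, 3 or 5). It was -0.587 without LPS replicates 1 and 2 (permutation p = 0.0653) and 0.329 on values not centred by group (permutation p = 0.228), where the group differences enter. Of the 10 genes most like KRT18, 5 were shared with the 10 by Spearman's rho, 0 with those by deviations from group means and 0 with those of the dimmer row.

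Genes called in LPS+RSV against LPS numbered 5. They numbered 20 with every named row tested, 18 with quantile normalization and 25 with array weights. In a fit to the 2 groups 0 were called, and without LPS replicates 1 and 2 it was 1. Without 1 array the range was 1 to 121, with 102 without LPS replicate 3 and 121 without LPS+RSV replicate 2. In LPS against control 3 were called, but 8 with every named row, 15 with array weights, 0 in a fit to the 2 groups and 1 to 10 without 1 array. Replicate numbers were not taken as pairs, since same-numbered arrays had deviations correlating from -0.541 to 0.707 over the 3 comparisons. In LPS+RSV against control alone the range was -0.441 to 0.707. The brighter KRT18 row ranked the replicates in the same order in those 2 groups, but not in LPS. With the replicate block 3 genes were called in LPS+RSV against LPS and 6 in LPS against control. The same-numbered LPS+RSV minus control differences of the brighter KRT18 row were 0.04 to 0.09, positive in 5 of 5. Those of the dimmer row were -0.27 to 0.32, positive in 4 of 5. With the block, which also spans the LPS arrays, the adjusted p was 0.752 and 0.754 (limma). A paired test of LPS+RSV and control alone was not run. The main counts of 5 and 3 include KRT18, chosen by these contrasts, so nothing is read from its place in them. The cause of these changes was not tested.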
